A study of Mus musculus with 9 samples.

Results

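The comparison described here is that of ERα KO with wildtype CD4+ T cells in the deeply sequenced batch of the study, batch 2. Its members are all genes with a mean of at least 1 CPM (counts per 1000000 counts of a library) over the 4 libraries of that batch, 12709 of the 39253 genes in the table. No measured difference between the genotypes entered the choice. Both groups were CD4+ T cells taken on day 9 of experimental autoimmune encephalomyelitis (EAE), an autoimmune attack on brain and spinal cord that is induced in mice to model multiple sclerosis. Wildtype replicates 3 and 4 formed one group and ERα KO replicates 4 and 5 the other. The labels give neither the tissue, the sex and age of the mice, nor the cells in which the knockout acts, nor whether animals were pooled. The title of the study concerns ERα in dendritic cells, whereas the RNA came from T cells.

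ERα, encoded by Esr1, is a nuclear receptor that binds estrogens and then regulates transcription from DNA and through other transcription factors such as AP-1. CD4+ T cells drive EAE. Th17 cells, which make IL-17 and IL-22, and Th1 cells, which make interferon gamma, are the effector types best known in the disease, while regulatory T cells restrain it. Before they turn into effectors, naive T cells leave quiescence, receive signals through the T cell receptor and divide, and each of these steps has its own known genes.

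The 4 libraries held 45013017 to 69844721 counts, so that 3 counts, the smallest number read as a signal here, corresponded to 0.043 to 0.0666 CPM. Esr1 was checked first, although it was no member at a mean of 0.883 CPM. It had 101 and 76 counts in wildtype replicates 3 and 4 and 9 and 14 counts in KO replicates 4 and 5, and was thus 7.87-fold lower in the knockout by summed counts (95% exact binomial counting interval 5.08 to 12.7, which covers counting error only). All 4 libraries carried the Y-linked gene Ddx3y at 93.6 to 107 CPM, and the X-inactivation RNA Xist had 13 counts in wildtype replicate 4 and 0 in the other libraries. The T cell genes Cd4 (1152 to 1321 CPM) and Cd3e (1266 to 1522 CPM) were abundant in every library, and Cd8a had 11 counts in wildtype replicate 3 and 0 elsewhere. Cd8b1, the other chain of CD8, was present in every library at 10.6 to 11.5 CPM, and 4 of the 5 genes in the CD8 list were members.

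Wildtype replicate 3 stood apart from the other libraries. Erythroid markers were high in it alone, with the anion exchanger Slc4a1 at 2023 CPM against 52.3, 72.8 and 71 CPM in wildtype replicate 4 and KO replicates 4 and 5. All 9 measured erythroid markers together summed to 4112 CPM in that library and to 157, 226 and 212 CPM in the others, and 14 neutrophil markers reached their highest sum there too. Wildtype replicate 4 in turn had the highest levels of effector T cell and macrophage genes, as described below. Over all members, the median absolute difference between the wildtype libraries was 0.25 on the log2 scale, larger than the 0.16 between the KO libraries. Between single wildtype and KO libraries the same median was 0.21 to 0.24. The median absolute log2 fold change between the groups was 0.17, but there each side is averaged over 2 libraries. Each side held only 2 libraries, which the labels do not trace to separate mice, so the p-values reflect the scatter of these libraries, which may be technical.

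The question put to these data was which transcripts of CD4+ T cells differed between ERα KO and wildtype mice during EAE. No gene passed an adjusted p of 0.05 in edgeR's quasi-likelihood test, which is 0% of the 15910 genes tested, and the lowest adjusted p was 0.345. At an unadjusted p under 0.05, edgeR had 791 genes lower in the knockout (4.97% of those tested) and 446 higher (2.8%). DESeq2, which was fitted as an alternative, called 269 genes lower (1.72% of 15601 with an adjusted p) and 60 higher (0.385%), and limma-voom called 0, with 1176 genes at an unadjusted p under 0.05. Genes are therefore described by their values, with DESeq2's adjusted p beside them. An exact permutation test of 2 libraries against 2 cannot go below a two-sided p of 0.333.

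The order of the libraries was counted without a model. Both wildtype libraries lay above both KO libraries for 2481 members (19.5%), and both KO libraries lay above both wildtype libraries for 2742 members (21.6%). Without overlap and with at least 2-fold between the nearest libraries of the groups, there were 112 members lower in the knockout (0.881%) and 24 higher (0.189%). Among the 112, 60 had wildtype libraries within 1.5-fold of each other, while in 31 wildtype replicate 3 lay at least 2-fold above wildtype replicate 4. Of the 112, 56 reached a mean of 1 CPM in wildtype only, and of the 24, 10 reached it in knockout only; such members rest on the group where they were high. Most of the separated members were of low abundance: 78 of the 112 and 18 of the 24 had a mean of 1 to 5 CPM. With the 5 CPM minimum, 34 lower and 6 higher members were left. Library-total CPM, DESeq2 size factors and upper-quartile scaling gave 108 to 117 lower and 24 to 26 higher. Over all members, the median log2 fold change was -0.00, and 50.2% of members had a negative value.

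**Figure D1:**
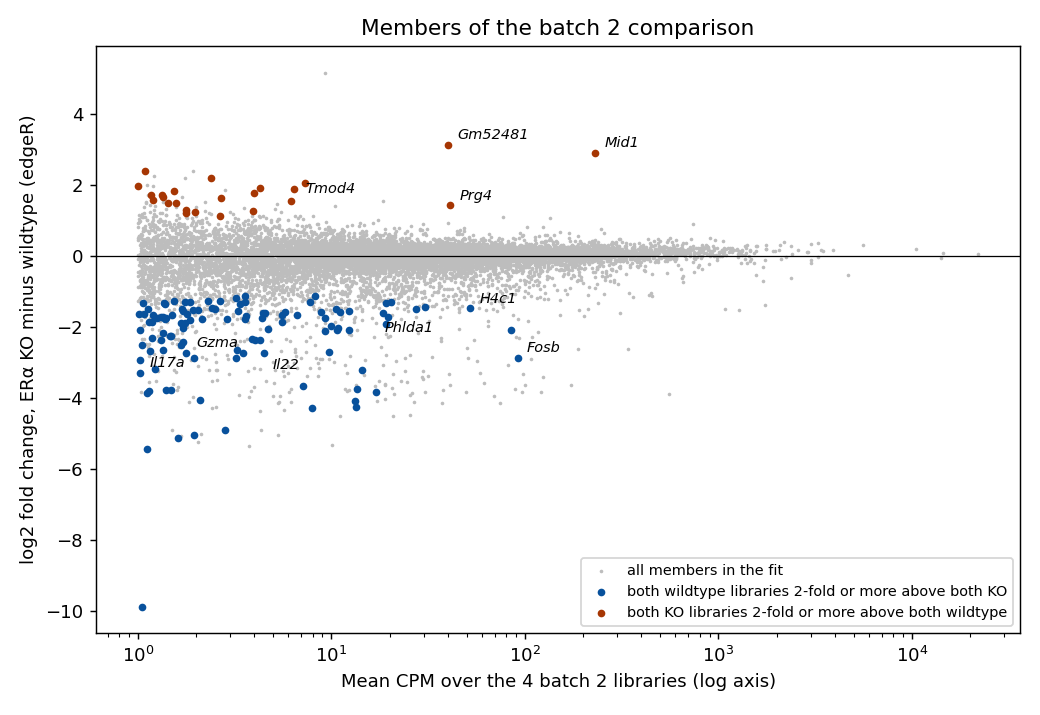
Each point is 1 of the 12705 members in the edgeR fit, plotted by its mean CPM over the 4 libraries (log axis) and its log2 fold change, ERα KO minus wildtype. Coloured points are members whose groups lay at least 2-fold apart (111 of the 112 lower, since Ctsg was not in the fit, and 24 higher); of these, only Mid1 exceeds a mean of 100 CPM.

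The smallest p belonged to Mid1. This gene encodes midline 1, a microtubule-associated ubiquitin ligase, and in laboratory mice it spans the boundary of the pseudoautosomal region, the stretch shared by X and Y. In wildtype, Mid1 stood at 54.9 and 53.9 CPM, and in the KO libraries at 330 and 484 CPM. The lower KO library thus exceeded the higher wildtype library 5.87-fold (log2 fold change 2.91 ± 0.21 SE; edgeR adjusted p = 0.345; DESeq2 adjusted p = 4.28e-37). The predicted gene Gm52481, listed near the end of the Y chromosome, had the next smallest p, with 9.89 and 6.46 CPM in wildtype against 77.4 and 66.6 CPM in knockout (log2 fold change 3.13 ± 0.27 SE; edgeR adjusted p = 0.442; DESeq2 adjusted p = 7.74e-26).

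These genes led to a look at their neighbours, chosen after the values had been seen. In the gene order of RefSeq's GRCm38 table, the last 10 places of X hold 3 members and the last 10 of Y hold another 3. Erdr1, a pseudoautosomal gene 1 place from the end of X, had 418 and 619 CPM in wildtype against 990 and 939 CPM in knockout (log2 fold change 0.91 ± 0.17 SE; DESeq2 adjusted p = 0.00101). Gm33272, 1 place from the end of Y, had 167 and 202 CPM in wildtype against 317 and 308 CPM in knockout (log2 fold change 0.77 ± 0.11 SE; DESeq2 adjusted p = 1e-05). LOC108168645, the last gene of Y, lay at 0.702 and 0.111 CPM against 1.26 and 2.8 CPM and was not called (DESeq2 adjusted p = 0.397). Its mean reached 1 CPM in knockout only, so its place among the members rests on the group where it was high. In these 5 genes no KO library overlapped a wildtype library. The sixth member, Hccs, a heme lyase gene 8 places from the end of X, ran the other way, at 20.2 and 19 CPM against 17.8 and 13 CPM.

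**Figure D2:**
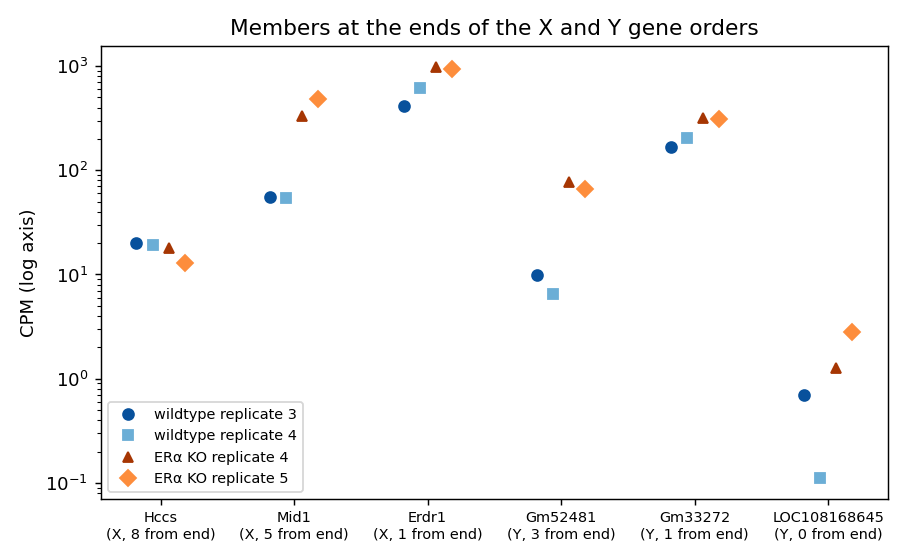
CPM on a log axis in each of the 4 libraries for the 6 members among the last 10 gene places of X and of Y; symbols mark single libraries. Mid1, Erdr1, Gm52481, Gm33272 and LOC108168645 were higher in both KO libraries, whereas Hccs was not.

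Genes shared by X and Y are near-identical copies, and how the estimated counts were divided among them is uncertain. Elsewhere on these chromosomes no member was separated 2-fold between the groups. The 381 members on X had a median log2 fold change of -0.02, and Mid1 was the 1 of them separated 2-fold. Of the 381, 23 had an unadjusted edgeR p under 0.05 (6.04%). Y-linked Uty ran from 56.6 to 70.8 CPM, Kdm5d from 51.5 to 59.9 CPM and Eif2s3y from 70.7 to 82.5 CPM over the 4 libraries.

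Outside the sex chromosomes, the genes most clearly higher in the knockout included several with known roles on T cells. Art2b, an ADP-ribosyltransferase on the T cell surface, and P2rx7, the ATP-gated channel that this enzyme modifies, were both higher. Art2b had 98.4 and 74.8 CPM in wildtype against 187 and 180 CPM in knockout (log2 fold change 1.08 ± 0.18 SE; DESeq2 adjusted p = 4.78e-05). P2rx7 had 74.3 and 73.1 CPM against 110 and 122 CPM (0.66 ± 0.11 SE; DESeq2 adjusted p = 0.00142). The wildtype libraries differed little for P2rx7, and neither gene overlapped between the groups.

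Nt5e, which encodes CD73, the enzyme that makes adenosine from AMP, belongs to the same pathway. It had 38.7 and 32.5 CPM in wildtype against 56.3 and 65.5 CPM in knockout (log2 fold change 0.77 ± 0.16 SE; DESeq2 adjusted p = 0.0128). Of the 12 members in the list of ATP and adenosine genes, 9 had a positive log2 fold change and the median was 0.29. The adenosine transporter Slc29a1 lay on the other side, at 34.5 and 29.5 CPM in wildtype against 22.3 and 23.9 CPM in knockout, and DESeq2 did not call it (log2 fold change -0.47 ± 0.16 SE).

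Prg4, the gene of the joint lubricant lubricin, stood at 21.7 and 22.9 CPM in wildtype against 50.7 and 69.5 CPM in knockout (log2 fold change 1.44 ± 0.18 SE; DESeq2 adjusted p = 2.05e-07). Tmod4, a tropomodulin that caps actin filaments, stood at 2.75 CPM in both wildtype libraries and at 9.72 and 10.6 CPM in the KO libraries (1.88 ± 0.26 SE; DESeq2 adjusted p = 8.49e-07). Both genes were thus more than 2-fold higher in each KO library than in either wildtype library. Sgpp1, a phosphatase of sphingosine 1-phosphate, had 75.2 and 82.2 CPM in wildtype against 118 and 117 CPM in knockout. Ms4a4c, Itih5 and Ddr1, a collagen receptor, had log2 fold changes of 0.73, 0.93 and 0.83, each without overlap and each called by DESeq2.

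On the lower side, the smallest p belonged to Phlda1, a pleckstrin-homology-like gene induced by T cell receptor signals. It had 45.8 and 43.1 CPM in wildtype against 17 and 15.6 CPM in knockout (log2 fold change -1.44 ± 0.14 SE; edgeR adjusted p = 0.544; DESeq2 adjusted p = 8.56e-12). Gzma, the protease granzyme A, had 6.53 and 6.93 CPM in wildtype against 1.37 and 1.23 CPM in knockout (-2.37 ± 0.32 SE; DESeq2 adjusted p = 6.25e-07). For both genes the libraries of a group lay close together, so that neither wildtype library decided the difference. 

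Klf11, a Krüppel-like transcription factor, had 35.9 and 24.1 CPM against 9.1 and 9.34 CPM. Septin8, a cytoskeletal GTPase, had 27.9 and 26.9 CPM against 9.77 and 12.1 CPM. Ehbp1l1 stood at 179 and 181 CPM in wildtype against 92.6 and 110 CPM in knockout, and Iqcn at 16.2 and 17.2 CPM against 6 and 5.2 CPM. DESeq2 called these 4 genes lower too, with log2 fold changes from -1.71 to -0.82.

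**Figure D3:**
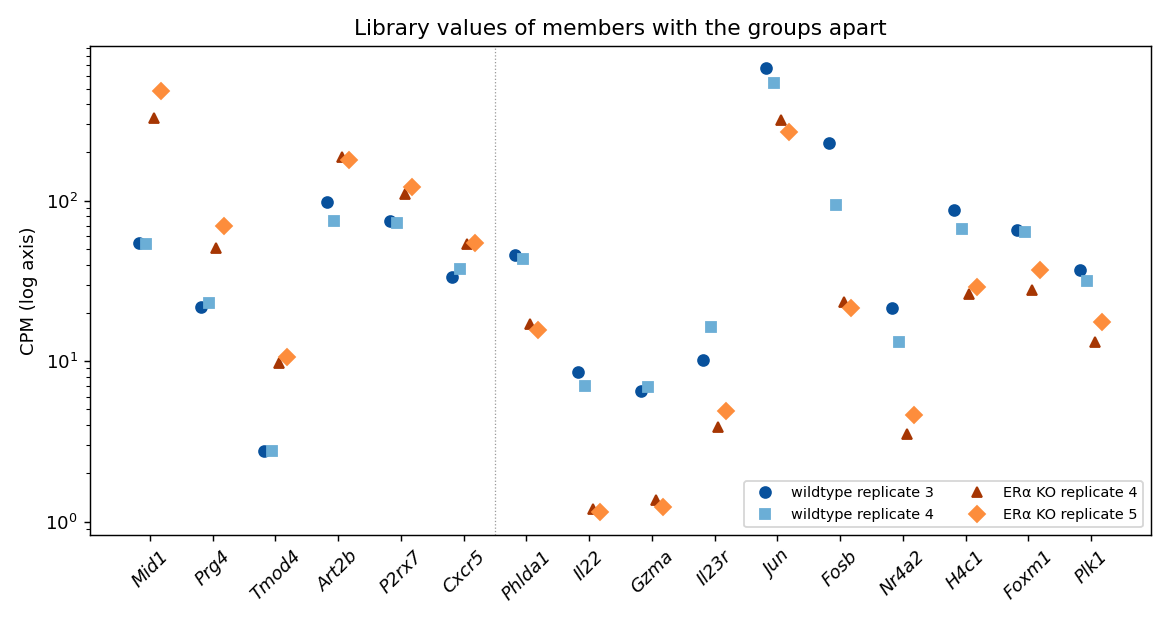
CPM on a log axis in each library for 6 members higher in the knockout (left of the dotted line) and 10 members lower (right of it); symbols mark the single libraries. No KO library overlaps a wildtype library in any of the 16 genes, and the wildtype libraries differ most in Fosb, at 230 and 94 CPM.

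Genes of cell division were examined in 3 lists. All 30 members of the mitosis list had a negative log2 fold change, with a median of -1.14. In 29 of them both wildtype libraries lay above both KO libraries, against 19.5% of all members. In edgeR, 23 had an unadjusted p under 0.05, all lower, and DESeq2 called 17 lower. Over all genes, edgeR had 4.97% lower at that p, and DESeq2 called 1.72% lower. The list of DNA replication and S phase had a negative value in 30 of 30 members, a median of -0.67 and 6 DESeq2 calls. The replication-dependent histones, which are made as DNA is copied, were negative in 59 of 59 members, with a median of -1.03 and 38 DESeq2 calls. In 56 of the 59 both wildtype libraries lay above both KO libraries, again against 19.5% of all members. H2bc23 among the histones reached a mean of 1 CPM in wildtype only. Histone genes are close copies of each other, so single members are uncertain.

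Foxm1, the transcription factor of the G2 and M phases, had 65.8 and 64.1 CPM in wildtype against 27.8 and 36.8 CPM in knockout (DESeq2 adjusted p = 0.00048). Plk1, the polo-like kinase of mitosis, had 36.8 and 31.5 CPM against 13.1 and 17.6 CPM (-1.15 ± 0.21 SE; DESeq2 adjusted p = 0.00144). Anln, the anillin of the cleavage furrow, had 38.9 and 25.4 CPM against 9.66 and 13.8 CPM. Mki67, the common proliferation marker, ran from 2155 and 1036 CPM in wildtype to 441 and 708 CPM in knockout, without a call by either tool (-1.48 ± 0.50 SE; DESeq2 adjusted p = 0.299). In each of these genes the order of the libraries was the same, with wildtype replicate 3 highest and KO replicate 4 lowest.

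Among S phase genes, Uhrf1, which maintains DNA methylation after replication, had 85.7 and 70.9 CPM in wildtype against 30.1 and 41.1 CPM in knockout (log2 fold change -1.14 ± 0.20 SE; DESeq2 adjusted p = 0.000563). Chaf1a, a histone chaperone subunit, had 24.1 and 19.8 CPM against 6.97 and 10.9 CPM, and Tk1, thymidine kinase, had 21 and 13.8 CPM against 7.68 and 6.59 CPM. The histone gene H4c1 had 87.2 and 66.3 CPM in wildtype against 26.2 and 28.9 CPM in knockout (-1.48 ± 0.19 SE; DESeq2 adjusted p = 7.84e-08). E2f2, an E2F factor of the G1 to S transition, had 248 and 176 CPM against 75.9 and 105 CPM (-1.23 ± 0.26 SE; DESeq2 adjusted p = 0.000643). Arhgap11a, a gene of dividing cells, had 57.9 and 60 CPM against 29.9 and 32.9 CPM (-0.90 ± 0.12 SE; DESeq2 adjusted p = 6.34e-06).

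Of the 13 members in the list of cell cycle inhibitors and retinoblastoma proteins, 8 had a negative value, and the 1 DESeq2 call was Cdkn2c, the CDK inhibitor p18, at 19.1 and 12.2 CPM in wildtype against 6.11 and 7.32 CPM in knockout. Ccnd3, the D-type cyclin prominent in lymphocytes, had 280 and 322 CPM against 217 and 229 CPM (log2 fold change -0.42 ± 0.10 SE; DESeq2 adjusted p = 0.0368). Against wildtype replicate 4 alone the mitosis median was -0.72, and against replicate 3 alone it was -1.43. For the histones these values were -0.82 and -1.23. Erythroid precursors, whose markers were high in wildtype replicate 3, also divide, and their part in the levels of that library was not tested. Without wildtype replicate 3 the erythroid median was 0.55 and the S phase median -0.43, against -4.37 and -0.78 without wildtype replicate 4. In bulk samples fewer cells of a type and less RNA per cell cannot be told apart.

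The promoters of the mitosis genes are shown because a known element, the cell cycle genes homology region (CHR, letters TTTGAA), sits in many of them. RefSeq promoters of build GRCm38.p6, from 250 bases before to 50 after the start site, were matched for 25 of the 30 mitosis members and 9953 of all members. The CHR letters, on either strand, were found in 76% of the mitosis promoters, in 15.1% of the promoters of all members and in 20.2% of the 27025 promoters in the table. CCAAT was found in 76%, 43.3% and 41.1%. The CHR letters were found in 19.3% of the 88 matched promoters of members separated 2-fold and lower. In S phase promoters they were found in 12%, and in histone promoters in 44.4%. The windows below are 30 bases long, 5′ to 3′, with the CHR in capitals, from Plk1 (promoter chr7:122159185-122159484, plus strand), Ccnb2, a B-type cyclin (chr9:70421505-70421804, minus strand), and Cdk1, its kinase (chr10:69352863-69353162, minus strand):
Plk1: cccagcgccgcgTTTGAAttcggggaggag
Ccnb2: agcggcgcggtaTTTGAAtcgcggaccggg
Cdk1: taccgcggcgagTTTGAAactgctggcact

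Cdk1 had 28.6 and 17.5 CPM in wildtype against 11.1 and 10.2 CPM in knockout (log2 fold change -1.12 ± 0.29 SE; DESeq2 adjusted p = 0.0396). Ccnb2 had 35.7 and 19.1 CPM against 7.64 and 15 CPM (-1.28 ± 0.48 SE; DESeq2 adjusted p = 0.129). In both genes the groups did not overlap. The windows of Ccnb2 and Cdk1 show the match nearest the start site, with its first base at 4 and -15 from it. A further match lay at -167 in Ccnb2 and at -71 in Cdk1. A match of letters is a description of the promoter and not a binding site.

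AP-1 factors and other early stress genes were taken as a list. AP-1 is a dimer of Fos and Jun proteins that is induced within minutes by receptor signals and by stress. Of the 18 members in this list, 16 had a negative log2 fold change, and DESeq2 called 9 lower, against 1.72% over all genes. In 14 both wildtype libraries lay above both KO libraries, against 19.5% of all members. The median was -0.82, or -0.53 against wildtype replicate 4 alone and -1.07 against replicate 3 alone. Atf3 among the 18 reached a mean of 1 CPM in wildtype only.

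Fosb had 230 and 94 CPM in wildtype against 23.4 and 21.3 CPM in knockout (log2 fold change -2.87 ± 0.54 SE; DESeq2 adjusted p = 1.16e-09). Fos had 193 and 80.3 CPM against 31.5 and 33.9 CPM (-2.08 ± 0.51 SE; DESeq2 adjusted p = 5.59e-05). Jun, its partner, had 671 and 546 CPM against 317 and 269 CPM (-1.06 ± 0.16 SE; DESeq2 adjusted p = 9.03e-06). The wildtype libraries were more than 2-fold apart for Fosb and Fos, and closer for Jun. Gadd45b, a stress-induced gene, had 22.8 and 20.1 CPM against 9.97 and 10.3 CPM, while the RNA-binding protein gene Zfp36l2 ran the other way, at 888 and 752 CPM against 1088 and 1132 CPM, without a DESeq2 call.

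Genes induced by the T cell receptor split. Of 20 members in that list, 11 were negative and 9 positive, with a median of -0.21 and 4 DESeq2 calls, all lower. Over all genes with an adjusted p, DESeq2 called 1.72% lower. Nr4a2, an orphan nuclear receptor, had 21.4 and 13.1 CPM in wildtype against 3.52 and 4.63 CPM in knockout (log2 fold change -2.09 ± 0.34 SE; DESeq2 adjusted p = 3.43e-05). Ier2 had 127 and 119 CPM against 84.9 and 82.3 CPM, and Dusp5, a phosphatase that turns off ERK, had 77.1 and 63.7 CPM against 40 and 46.5 CPM. The activation marker Cd69, by contrast, ran over 70.8, 57.1, 73.5 and 63.8 CPM, and Egr2 over 25.1, 26.7, 28.3 and 23.4 CPM, so that the groups overlapped in both.

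Heat shock genes differed in a few members. Hspa1a, the inducible HSP70, had 2312 and 1488 CPM in wildtype against 722 and 593 CPM in knockout (log2 fold change -1.54 ± 0.27 SE; DESeq2 adjusted p = 1.51e-06), and its near-identical copy Hspa1b was lower too (-1.37 ± 0.30 SE; DESeq2 adjusted p = 0.000183). The other 18 members gave no DESeq2 call, and the list median of -0.10 was 0.14 without wildtype replicate 3. The unfolded protein response had a negative value in 18 of 20 members with a median of -0.22 and 0 DESeq2 calls. Its chaperone Hspa5, known as BiP, had 370 and 305 CPM against 261 and 240 CPM.

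Of 20 members in the Th17 list, 18 had a negative log2 fold change, and DESeq2 called 6 lower and 0 higher. Over all genes with an adjusted p, DESeq2 called 1.72% lower and 0.385% higher. In 12 of the 20 both wildtype libraries lay above both KO libraries, against 19.5% of all members. For 3 of the 20, Il17a, Il17f and Csf2, the mean reached 1 CPM in wildtype only, so that their place among the members rests on the group where they were high. The median was -1.01, and it moved to -1.41 without wildtype replicate 3 and to -0.44 without wildtype replicate 4, the library with the highest Th17 levels.

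Il22 had 8.5 and 7.04 CPM in wildtype against 1.19 and 1.14 CPM in knockout (log2 fold change -2.74 ± 0.33 SE; edgeR adjusted p = 0.618; DESeq2 adjusted p = 5.86e-09). Il17a, the signature cytokine of the lineage, had 2.36 and 1.38 CPM against 0.286 and 0.0915 CPM (-3.29 ± 0.82 SE; DESeq2 adjusted p = 0.0272). Il23r, the receptor subunit for the cytokine that sustains Th17 cells, had 10.1 and 16.4 CPM against 3.88 and 4.89 CPM (-1.58 ± 0.31 SE; DESeq2 adjusted p = 0.00271). The 2 wildtype libraries agreed within 1.5-fold for Il22, which made it the least dependent of the 3 genes on a single library.

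Il1r1, the interleukin-1 receptor, had 52.9 and 114 CPM in wildtype against 38.3 and 29.8 CPM in knockout (DESeq2 adjusted p = 0.019). Bhlhe40, a transcription factor of pathogenic helper cells, had 132 and 239 CPM against 55.6 and 102 CPM (DESeq2 adjusted p = 0.0314). Csf2, which encodes GM-CSF, a cytokine needed for EAE, had 0.916 and 2.44 CPM against 0.366 and 0.403 CPM and was not called (log2 fold change -2.10 ± 0.71 SE; DESeq2 adjusted p = 0.259). Other Th17 genes overlapped between the groups, among them Batf, at 45.7 and 71.1 CPM in wildtype against 54.4 and 54.8 CPM in knockout, and Ahr, at 14 and 25.8 CPM against 17.7 and 14.2 CPM.

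The Th1 list was negative in 14 of 16 members with a median of -0.54, which was -0.11 without wildtype replicate 4, and DESeq2 called 0. In 5 of the 16 both wildtype libraries lay above both KO libraries and in 1 below, against 19.5% and 21.6% of all members. Among the 16 members, Ccl3 and Hlx reached a mean of 1 CPM in wildtype only. Ifng, interferon gamma, had 16.4 and 18.2 CPM in wildtype against 2.31 and 10 CPM in knockout (log2 fold change -1.48 ± 0.73 SE; DESeq2 adjusted p = 0.285), so that the KO libraries differed more from each other than the upper one did from wildtype. Tbx21, the Th1 master regulator T-bet, had 35.1 and 75.7 CPM against 18.5 and 38.6 CPM, with the groups overlapping. Gata3, the Th2 master regulator, overlapped as well, at 198 and 317 CPM against 203 and 255 CPM. Nfil3, a basic leucine zipper factor, was the DESeq2 call of the Th2 list, at 16.3 and 14.1 CPM against 4.96 and 7.08 CPM.

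Surface and cytoskeletal genes of memory and effector cells had a median of -0.59, with 20 of 22 members negative and 3 DESeq2 calls. Over all genes with an adjusted p, DESeq2 called 1.72% lower. In 5 of the 22 both wildtype libraries lay above both KO libraries and in 1 below, against 19.5% and 21.6% of all members. The list's median was -1.05 against wildtype replicate 4 and -0.15 against wildtype replicate 3. The 3 calls were Plac8, at 14.9 and 16.7 CPM in wildtype against 2.86 and 5.14 CPM in knockout (log2 fold change -1.98 ± 0.34 SE; DESeq2 adjusted p = 8.39e-05), Anxa1 and Lgals3. Anxa1, annexin A1, had 27.5 and 34.3 CPM against 12.3 and 18.6 CPM, and Lgals3, galectin 3, had 31.8 and 67.6 CPM against 14.9 and 22.2 CPM. The activation marker Cd44 had 231 and 407 CPM against 185 and 241 CPM, with overlap.

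**Figure D4:**
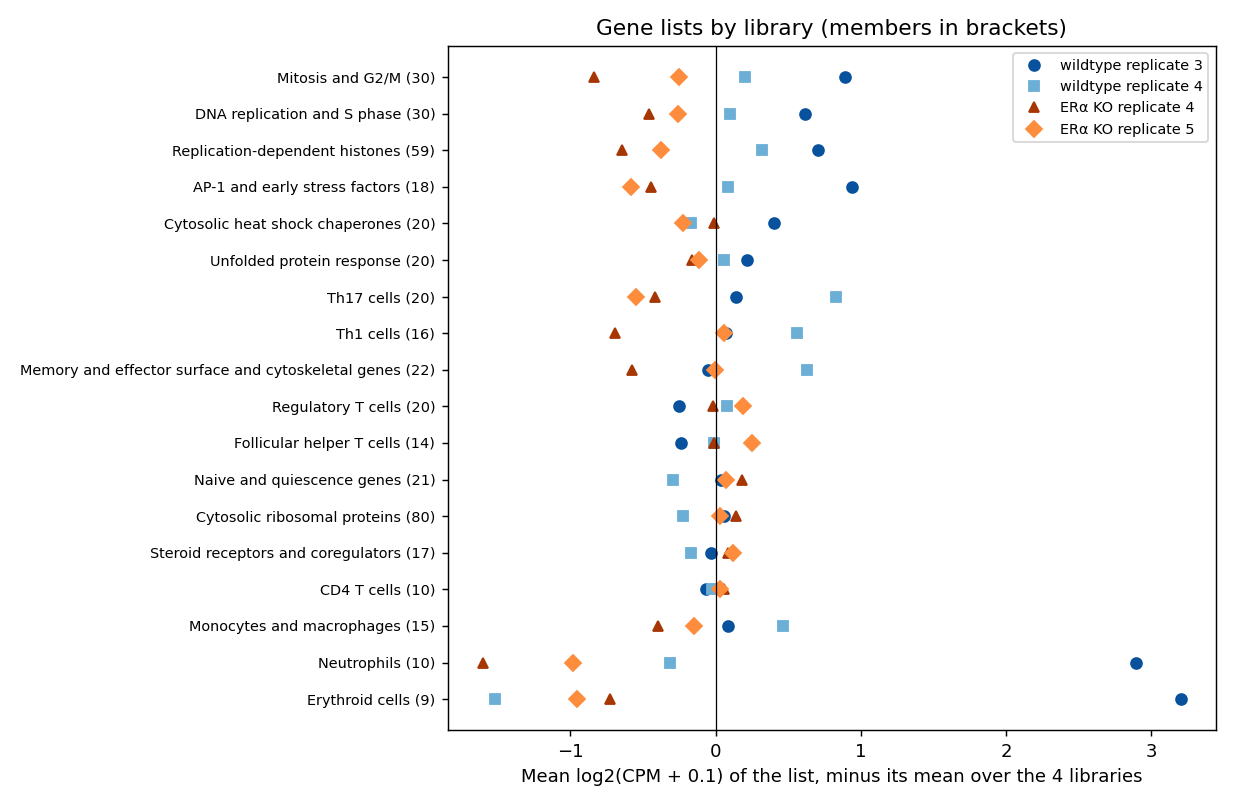
For 18 gene lists, the mean log2(CPM + 0.1) of its members in each library is plotted relative to the mean over the 4 libraries; numbers of members stand in brackets. Wildtype replicate 3 is highest in the cell division, AP-1, neutrophil and erythroid lists, and wildtype replicate 4 in the Th17, Th1, effector and macrophage lists.

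Of the remaining effector genes, Hk2, the hexokinase induced in activated T cells, had 8.4 and 11.9 CPM in wildtype against 3.95 and 4.7 CPM in knockout (log2 fold change -1.22 ± 0.28 SE; DESeq2 adjusted p = 0.0213). It was the 1 DESeq2 call among 20 glycolysis members, whose median was -0.10. Havcr2, the inhibitory receptor TIM-3 of effector cells, had 15.3 and 34.7 CPM against 4.26 and 10.5 CPM (DESeq2 adjusted p = 0.0464). The list of inhibitory receptors and anergy genes, to which Havcr2 belongs, mostly ran the other way. In that list 16 of 20 members were positive, the median was 0.14, and DESeq2 called 1 lower and 2 higher. Pmaip1, the pro-death BCL2 family gene Noxa, had 16.3 and 24.9 CPM against 7.02 and 10.7 CPM (DESeq2 adjusted p = 0.0314), while the survival gene Bcl2 had 259 and 234 CPM against 307 and 333 CPM with no DESeq2 call. The 12 cytotoxic members had a median of -0.16, with Gzma as the 1 call.

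In the list of naive and quiescence genes 18 of 21 members had a positive log2 fold change, and the median was 0.27. In 13 both KO libraries lay above both wildtype libraries, against 21.6% of all members. The median was positive without either wildtype library, at 0.43 without replicate 3 and 0.18 without replicate 4. Dapl1, a marker of naive T cells, had 81.6 and 67.4 CPM in wildtype against 134 and 128 CPM in knockout (log2 fold change 0.81 ± 0.15 SE; DESeq2 adjusted p = 0.00144).

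Lef1, a transcription factor of naive cells, had 807 and 692 CPM against 1067 and 1044 CPM (log2 fold change 0.49 ± 0.13 SE), just short of a DESeq2 call at an adjusted p of 0.0537. Bach2, a repressor of effector genes, had 423 and 385 CPM against 602 and 528 CPM (DESeq2 adjusted p = 0.0547). Ccr7, the lymph node homing receptor, had 230 and 169 CPM against 335 and 291 CPM (DESeq2 adjusted p = 0.0888). The groups were apart in all 3 genes. The interleukin-7 receptor Il7r had 397 and 379 CPM against 510 and 481 CPM, also apart and not called. Btg2, an antiproliferative gene that is also an early response gene, was the DESeq2 call on the lower side, at 341 and 283 CPM against 222 and 195 CPM.

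Regulatory T cell genes were positive in 14 of 20 members and negative in 6, with log2 fold changes from -0.68 to 0.91 and a median of 0.17. In 8 both KO libraries lay above both wildtype libraries and in 2 below, against 21.6% and 19.5% of all members. DESeq2 called 3, all higher in the knockout, against 0.385% called higher over all genes. The calls were Izumo1r, Gpr83 and Lrrc32. Izumo1r, the folate receptor 4 of regulatory and anergic T cells, had 117 and 120 CPM in wildtype against 195 and 179 CPM in knockout (log2 fold change 0.66 ± 0.10 SE; DESeq2 adjusted p = 7.53e-05). Gpr83, a G protein-coupled receptor of regulatory T cells, had 24.6 and 16.4 CPM against 37.5 and 40 CPM (DESeq2 adjusted p = 0.0494). Lrrc32, known as GARP, which displays latent TGF-beta, had 38.5 and 36.6 CPM against 52.6 and 61.9 CPM (DESeq2 adjusted p = 0.0374).

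Foxp3 itself, the factor that defines regulatory T cells, had 217 and 290 CPM in wildtype against 294 and 349 CPM in knockout. Its nearest libraries were almost equal and it was not called (log2 fold change 0.35 ± 0.15 SE; DESeq2 adjusted p = 0.504). Il10 was too low to be a member, with 0 and 0.666 CPM in wildtype against 0.286 and 1.01 CPM in the KO libraries. The list's median was 0.01 against wildtype replicate 4 alone and 0.40 against replicate 3 alone.

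In the list of follicular helper T cells 12 of 14 members were positive, and the median was 0.26. In 8 both KO libraries lay above both wildtype libraries, against 21.6% of all members. Cxcr5, the receptor that brings T cells to B cell follicles, had 33.4 and 37.3 CPM in wildtype against 53.6 and 54.5 CPM in knockout (log2 fold change 0.62 ± 0.11 SE; DESeq2 adjusted p = 0.00485). Slamf6 had 183 and 190 CPM against 239 and 249 CPM (0.39 ± 0.09 SE; DESeq2 adjusted p = 0.0393). Bcl6, the lineage factor, had 40.4 and 43.4 CPM against 49.9 and 53.5 CPM, apart but not called (DESeq2 adjusted p = 0.43).

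Other programmes had small medians. Cytosolic ribosomal protein genes were positive in 74 of 80 members, but by a median of only 0.15, which was 0.01 without wildtype replicate 4, and DESeq2 called 0. The 62 oxidative phosphorylation members had a median of -0.07 and 0 calls. The T cell receptor complex and its kinases had a median of 0.10 over 22 members, and MHC class I presentation 0.11 over 18, each with 0 DESeq2 calls. Guanylate-binding proteins had a median of 0.13 over 17 members, TGF-beta receptors and SMADs 0.17 over 15, and cholesterol synthesis 0.12 over 23, again with 0 calls. Both KO libraries lay above both wildtype libraries in 33 of 80 ribosomal and 10 of 18 MHC class I members. The T cell receptor list had 9 of 22, TGF-beta 7 of 15 and cholesterol synthesis 8 of 23 such members. Guanylate-binding proteins had 4 of 17 and oxidative phosphorylation 8 of 62, against 21.6% of all members. The reverse order held for 15 oxidative phosphorylation members and for at most 3 members in each other list.

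Single members stood out in some of these groups. Oas3, an antiviral oligoadenylate synthetase, had 77.2 and 71.4 CPM in wildtype against 43.7 and 50 CPM in knockout (DESeq2 adjusted p = 0.00979), as the 1 call among 31 type I interferon response members. Tnip1, which restrains NF-κB signals, had 158 and 171 CPM against 224 and 215 CPM, and Nfkbid, an atypical IκB protein, had 72.5 and 66.6 CPM against 49.6 and 46.8 CPM. Both were called by DESeq2, on opposite sides. Slc1a5, a glutamine transporter, had 185 and 200 CPM against 148 and 144 CPM (DESeq2 adjusted p = 0.0365).

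Steroid receptors and their coregulators were looked at because the deleted gene is one of them. Of 17 members, 15 had a positive log2 fold change, with a median of 0.24 and 0 DESeq2 calls. In 12 both KO libraries lay above both wildtype libraries, against 21.6% of all members. The coactivator Ncoa3 had 421 and 375 CPM in wildtype against 510 and 482 CPM in knockout, and Crebbp had 755 and 766 CPM against 902 and 914 CPM. Esr2, the other estrogen receptor, had 10 counts in KO replicate 5 and 0 in the rest.

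A list of estrogen response genes known from breast cells held 12 members, 6 on each side, with a median of -0.04. Its 2 DESeq2 calls were Fos and Sgk1, a kinase also induced by glucocorticoids, at 93.2 and 100 CPM in wildtype against 69.3 and 66.5 CPM in knockout (log2 fold change -0.50 ± 0.10 SE; DESeq2 adjusted p = 0.00877). The estrogen response element, searched by its full palindromic consensus on both strands, was found in 0 of 88 matched promoters of the members separated 2-fold and lower. It was found in 0 of 19 of those higher and in 0.01% of all members' promoters. With 1 match in 9953 promoters of all members, the search was too rarely positive to tell sets of this size apart.

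Genes beside Esr1 on chromosome 10 were examined as neighbours of the targeted gene. The 5 members before it and the 25 after it had a median log2 fold change of 0.08. Of these 30, 3 were apart and lower and 8 apart and higher, against 19.5% and 21.6% of all members. The number separated 2-fold was 0, against 0.881% lower and 0.189% higher over all members. Akap12, a kinase anchoring protein among these 30, was the 1 called by DESeq2, with 21.1 and 25 CPM in wildtype against 38.5 and 39.5 CPM in knockout (0.77 ± 0.13 SE; DESeq2 adjusted p = 0.0026).

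Markers of other cell types were summed in each library. The 14 neutrophil markers, of which 10 were members and 9 of these had a negative value, summed to 297 and 37.5 CPM in wildtype against 18.1 and 20.2 CPM in knockout. The median of the members was -3.97, or -1.65 against wildtype replicate 4 alone and -4.80 against replicate 3 alone. For 4 of the 10 members, Camp, Elane, Ltf and Mpo, the mean reached 1 CPM in wildtype only. Their place among the members thus rests on the group where they were high. S100a8, an antimicrobial calprotectin subunit, had 56.1 and 7.46 CPM against 1.99 and 2.54 CPM, so the groups did not overlap although the wildtype libraries lay far apart. DESeq2 called 0 of the 10 members.

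The 9 erythroid markers had a median of -3.42, which was 0.55 without wildtype replicate 3. The 15 monocyte and macrophage members had their highest sum, 305 CPM, in wildtype replicate 4 and sums of 165 and 188 CPM in knockout, 14 of them with a negative value, a median of -0.55 and 0 DESeq2 calls. Cd14 and Fcgr1 among these members reached a mean of 1 CPM in wildtype only. C1qa, a complement gene of macrophages, had 9.58 and 22.1 CPM against 8.02 and 8.95 CPM. B cell markers were low, with sums of 10.6 to 18.5 CPM over 10 genes, of which 5 were members. The 14 dendritic cell markers, 6 of them members, summed to 85.2 to 103 CPM. The 10 NK cell markers summed to 57.6 and 49.9 CPM in wildtype against 50.6 and 41.7 CPM in knockout. Of the 5 NK markers that were members, 4 had a negative value, the median was -0.91, and the 1 DESeq2 call was Gzma. Cd244a among these 5 reached a mean of 1 CPM in wildtype only. Of the 9 gamma delta T cell markers 3 were in the table, with sums of 3.82 and 3.18 CPM in wildtype against 1.57 and 1.17 CPM in knockout. Their 2 members, Il17a and Blk, had a median of -1.90 and reached 1 CPM in wildtype only. Gzma and Il17a thus stand both in these lists and in those of T cells. The part of any of these cells in the differences of the T cell lists was not tested.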

How the data were processed

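RNA of CD4+ T cells was sequenced as single-end reads of libraries made from total RNA, per the labels' protocols. The submitters' processing notes list the build GRCm39 with Salmon 1.2.0 and R 4.0.3, and no roles for them; for the annotation, strand setting and filters the labels give nothing. The authors deposited expected counts (estimated counts) per gene, which were rounded here, and a scaling by transcript length cannot be told from them. All batch 1 libraries were left out. The members, gene lists and tests were chosen with earlier results of these data known.

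Within batch 2, edgeR 4.0.16 in R 4.3.3 fitted genotype with TMM scaling, robust quasi-likelihood and its default filter (minimum count 10, total 15), which left 15910 genes. It left out 4 members, each high in 1 library: Gm40369, Clca3a1, Ctsg and Erfe. P-values were adjusted by Benjamini-Hochberg over all genes tested, at 0.05; adjusted p in the text is over all genes. Standard errors come from the quasi-likelihood F. Printed CPM are counts per 1000000 of the library total; order and separation of the libraries use TMM-scaled CPM. Just inside the threshold of 1 CPM lay 160 genes with means of up to 1.1 CPM, and just outside it 180 with at least 0.9 CPM, Stap2 at 0.999 CPM among them.

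Alternatives were DESeq2 1.42.0, limma-voom (limma 3.58.1), other scalings and filters, and each library left out. The scripts were tested on simulated data. Replicates differed by far more than sampling noise (chi-square per degree of freedom 141 in wildtype and 28.9 in KO). The rule for named genes took a fixed set, the 12 smallest p and the 10 largest folds without overlap in each direction, and up to 4 members per list with the smallest p. Predicted genes and pseudogenes were left out of it. Other genes named, such as Gm52481, Gm33272, LOC108168645, Erdr1, Hccs and further list members given for contrast (Cdk1, Ccnb2, Il1r1, Bhlhe40, Batf, Ahr, Cd44, Cd69, Egr2, Zfp36l2, Fos), were picked with their values in view. A gene fixed for naming may be absent here. Promoter sequences and gene order are RefSeq's (GRCm38); the deposited table uses another build.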

Additional observations from a re-analysis of the deposited data

How the results depend on the processing

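Calls by genotype depended on the tool and on single libraries. Where edgeR called 0 genes in each direction, DESeq2 called 269 lower and 60 higher, and edgeR with no low-count filter called 27 lower and 7 higher. Leaving out 1 library gave edgeR between 0 and 780 genes lower and between 0 and 99 higher: 180 and 88 without wildtype replicate 3, 780 and 99 without wildtype replicate 4, and 0 without either KO library. With 1 wildtype library left, that library is assumed to vary like the KO libraries. The cause was not tested. Other scalings, limma-voom, the fit without robust estimation and filters at 1 and 5 CPM called 0. Members separated 2-fold numbered 34 lower and 6 higher at 5 CPM or more, where fewer genes were considered. Against a single wildtype library, an alternative added after seeing the data, they numbered 402 to 711 lower and 136 to 159 higher. Members apart by any amount then numbered 4724 to 4751 lower and 4890 to 5196 higher, since fewer samples must be passed. Over the omission of each library, the list medians ran from -1.41 to -0.44 for Th17 cells and from -1.05 to -0.15 for memory and effector genes. They ran from 0.01 to 0.40 for regulatory T cells, from -1.27 to -0.82 for histones, from -4.80 to -1.65 for neutrophils and from -4.37 to 0.55 for erythroid cells. Of the 106 genes examined under each alternative, 3 changed sign on leaving out a library: Gata3 ran from -0.43 to 0.17 (0.01 without KO replicate 4), Slc4a1 from -4.86 to 0.50 and Alas2 from -4.37 to 0.38. No paired analysis was possible because the groups compared share fewer than 2 replicate numbers.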

Other observations

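Of the members separated 2-fold, 26 of the 112 lower and 12 of the 24 higher were predicted, clone-named or pseudogene entries. The share of such entries over all members was not counted. Over all members, 366 reached a mean of 1 CPM in wildtype only and 125 in knockout only.

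Chromosome 13, which holds the main cluster of replication-dependent histone genes, had an unadjusted edgeR p under 0.05 in 16.5% of its 504 members. The other autosomes and X ran from 6.04% on X to 11.9%. The 7 members on Y were not counted here. Mest, an imprinted gene, had 0.802 and 7.13 CPM in wildtype replicates 3 and 4 and 0.223 and 0.238 CPM in KO replicates 4 and 5, so its wildtype level came mainly from replicate 4. Atf3, a stress-induced transcription factor, came mainly from replicate 3, at 6.51 and 1.07 CPM against 0.223 and 0 CPM.

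The KO libraries were the most alike of all pairs, with 3.67% of members at least 2-fold apart. The wildtype libraries were 2-fold apart in 9.57% of members, as many as wildtype replicate 3 and KO replicate 4 (9.57%).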
